A study of Mus musculus with 68 samples.

Results

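Genes for the factors that start protein synthesis were followed in single dopamine neurons of the mouse ventral tegmental area. Members were the genes of the table whose symbol begins with Eif and a digit from 1 to 6, with the sex-linked pair that encodes the gamma subunit of eIF2 left out, which gave 64 of 36172 genes. Of these, 51 had at least 1 count in some cell and 13 were listed at 0 in every cell. The 13 were Eif3j, 7 pseudogenes and 5 entries under the older Eif2c symbols of the Argonaute genes, which share a name with the initiation factors but not their task. Counts were present in at least 34 of the 68 cells, whatever the genotype, for 41 members, which are called measured below. The other 10 were Eif2ak1, Eif2ak3, Eif2ak4, Eif2b5, Eif2d, Eif3b, Eif4ebp1, Eif4ebp2, Eif4ebp3 and Eif4enif1.

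To start translation, eIF2 carries the initiator tRNA and GTP to the small ribosomal subunit, with eIF1, eIF1A, eIF5 and the large eIF3 complex. The eIF4F complex, made of the cap-binding eIF4E, the scaffold eIF4G and the helicase eIF4A, brings the messenger RNA, and 4E-BP proteins hold eIF4E back from that complex. When one of the eIF2 kinases phosphorylates eIF2, the exchange factor eIF2B is blocked and most initiation slows, which is the core of the integrated stress response, and in neurons these steps are known for their part in synaptic plasticity.

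RNA was drawn through the patch pipette after a recording and sequenced cell by cell (Patch-seq), from 33 3xTg and 35 WT neurons of 12-month-old mice. 3xTg mice are homozygous for 3 humanized transgenes, among them APP Swe and Tau P301L, and model familial Alzheimer's disease. WT mice carry none of them and come from a separate line kept in parallel on the same hybrid background, so that line and transgenes cannot be told apart. Mice of both sexes were used and pooled. The labels give no mouse for a cell, so each genotype counts as 1 sample, no test between genotypes was made, and the intervals below (exact, 95%) cover counting error only.

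Totals per cell ranged from 492684 to 1678941 counts, with a median of 1194762 in 3xTg and 982775 in WT. The numbers in the labels lie in runs of 1 genotype whose meaning is not stated. These were WT 1 to 22 (17 cells), 3xTg 24 to 55 (21 cells), WT 57 to 74 (15 cells), 3xTg 76 to 92 (12 cells) and WT 94 to 96 (3 cells). The median number of genes with a count was 5301, 7720, 8506, 9383 and 6287 in these runs, in this order. The study kept cells with the dopamine markers Th, Slc6a3 and Slc18a2 and without Pvalb, Tmem119, P2ry12 and Aldh1l1. Counts of the first 3 in every cell, and Aldh1l1 at 0, thus follow from that choice of cells. The dopamine marker Ddc also had counts in every cell. The log2 ratios of summed CPM (counts per 1000000 counts) of these 4 dopamine markers, 3xTg over WT, lay between 0.21 and 0.43 (median 0.35). Of 24 markers of other cells, the astrocyte marker Aldh1l1 and the endothelial markers Cldn5 and Pecam1 were at 0, and the highest summed level of a list in a cell was 4209 CPM in 3xTg and 2868 CPM in WT for the 6 microglial genes (lowest cell 0 in both) and 582 and 2540 CPM for the 5 oligodendrocyte genes (lowest cell 5.66 and 7.94 CPM). For the astrocyte, GABA and glutamate neuron lists the highest cell had 58.03, 167 and 119 CPM in 3xTg and 987, 267 and 760 CPM in WT. Over all cells of a genotype the microglial genes summed to 129 CPM (3xTg) against 427 CPM (WT), and the oligodendrocyte genes to 94.2 against 292 CPM. Apart from the settings given below, the part of these marker differences in the values of the initiation factors was not tested. Counts of Pvalb, Tmem119 or P2ry12 were still present in 5 cells of each genotype. Without these cells the same 2 initiation factor genes lay past 2-fold higher as with all cells, Eif3d and Eif3f.

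Initiation factor transcripts made up a slightly larger share of all counts in 3xTg cells, and few single genes stood far apart. Over the cells of a genotype they took 0.897% of the 3xTg and 0.822% of the WT counts, for a log2 ratio of 0.13 (interval 0.12 to 0.13). The share in single 3xTg cells lay between 0.518% and 1.28% (median 0.906%) and that in single WT cells between 0.262% and 1.29% (median 0.813%), so that the genotypes overlapped over nearly the whole range. With edgeR's TMM factors in place of total counts the log2 ratio was 0.23, and with cells thinned to an equal depth, where 2 shallower 3xTg cells and 5 shallower WT cells dropped out, it was 0.080. The difference was seen between the later runs alone. Between 3xTg 76 to 92 and WT 57 to 74 the log2 ratio was 0.24, and between 3xTg 24 to 55 and WT 1 to 22 it was -0.01. The WT runs themselves were apart by -0.19, later over earlier. Genotype and run cannot be told apart, since each run holds 1 genotype.

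Among the 41 measured members, the median log2 ratio of summed CPM, 3xTg over WT, was 0.18, beside -0.05 for all 7383 measured genes. It was 0.28 with TMM factors and 0.089 with thinned cells. Between the earlier runs it was 0.019, below the 0.14 of all measured genes, and between the later runs it was 0.20, beside -0.16. Between the earlier runs the ratio was above 0 for 23 of 41 members and 57.6% of all genes. Between the later runs it was above 0 for 28 of 41 members and 43.04% of all genes. With all cells it was above 0 for 28 of 41 members, where 46.8% of all measured genes lay above 0. Past 2-fold higher were 2 of 41, Eif3d and Eif3f, against 4.61% of all genes, and past 2-fold lower was 1 of 41, Eif4e1b, against 6.28%. In either direction 3 of 41 lay past 2-fold, a smaller share than the 10.9% of all genes. With TMM factors, which moved the median of all genes from -0.05 to 0.05, 31 of 41 members and 53.4% of all genes lay above 0, and the shares of all genes past 2-fold became 5.82% higher and 5.15% lower. Eif1, Eif2s1 and Eif3a, all within 0.07 of 0, turned to the other sign with these factors.

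Averaged over cells on a log scale, the members stood further from the other genes. The difference of the mean of log2(normalized count + 1), where a gene without a count adds 0, had a median of 1.02 over the members and 0.50 over all measured genes, so that the members lay 0.52 above the median gene. With thinned cells they lay 0.30 above it. By run this distance was 0.49 between the earlier and 0.71 between the later runs. Within 1 genotype, later over earlier, it was 0.47 between the 3xTg runs and -0.0038 between the long WT runs, so that the 3xTg runs alone were nearly as far apart as the genotypes. It exceeded the median gene by 1 or more for 11 of 41 members, against 11.7% of all genes. The 11 were Eif1a, Eif2a, Eif2b2, Eif3a, Eif3d, Eif3f, Eif3i, Eif4a1, Eif4h, Eif5a2 and Eif6. A single member, Eif4e1b, lay 1 or more below it, against 5.85%. This scale counts the number of cells with a transcript as much as its level, and detection moved with the genotype and the runs, as described at the end.

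**Figure D1:**
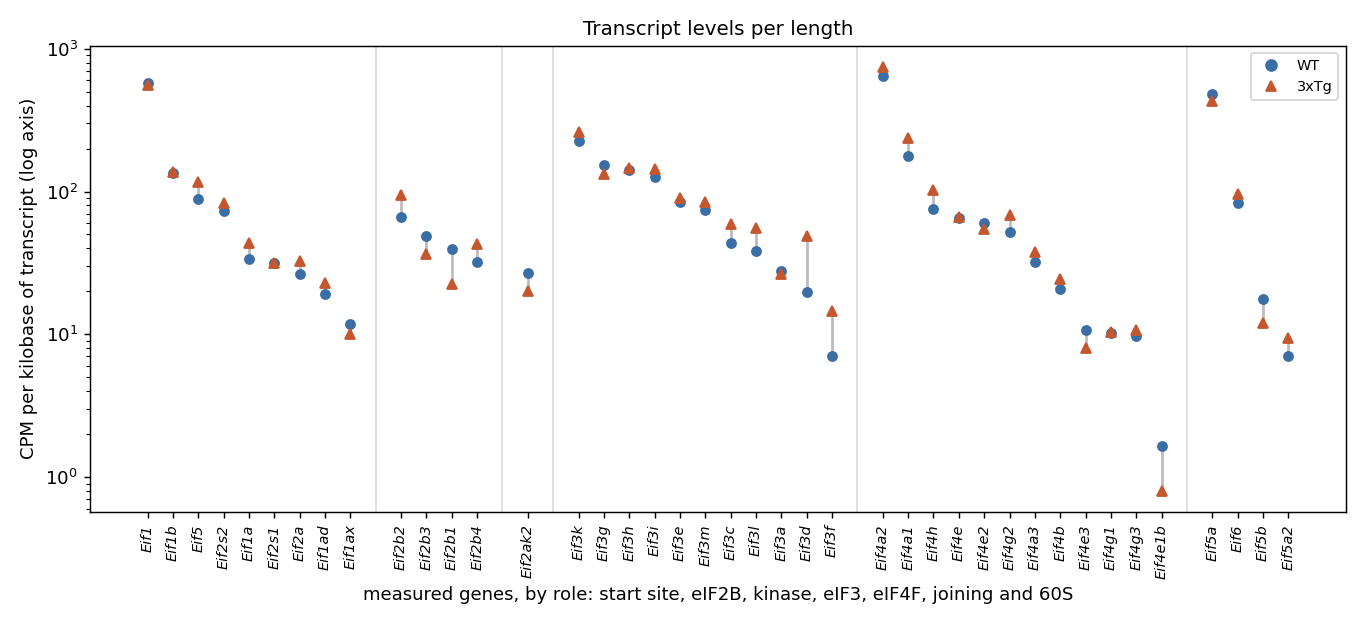
Transcript levels of the 41 measured initiation factor genes, as CPM of the summed counts per kilobase of transcript on a log axis, grouped by role, with WT as circles and 3xTg as triangles. Eif4a2, Eif1 and Eif5a lie highest in both genotypes, Eif4e1b lies lowest, and the genotypes are farthest apart for Eif3d, Eif3f and Eif4e1b.

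Levels can be compared between genes per kilobase of transcript. The helicase gene Eif4a2 was highest, at 649 CPM per kilobase in WT and 744 in 3xTg. It was followed by Eif1 (574 and 557), which keeps the scanning ribosome open until a start codon is found, and by Eif5a (479 and 430), whose product helps peptide bond formation. The lowest measured member was Eif4e1b, at 1.65 CPM per kilobase in WT and 0.805 in 3xTg. In the plot of levels per length, the members spanned a far wider range than any of them did between the genotypes.

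The 10 genes of the start site and of the eIF2 complex together took 0.201% of counts in 3xTg and 0.185% in WT. Eif1, the most counted of them, had 34.9 to 2154 normalized counts per cell in 3xTg (median 663) and 3.57 to 2663 in WT (median 640), with a log2 ratio of -0.04 (interval -0.07 to -0.02). Its paralogue Eif1b had a median of 118 in 3xTg and 83.7 in WT, with 0 as the lowest value in both and a log2 ratio of 0.03. The values of both copies overlapped widely between the genotypes. Per length, Eif1 made up 80.3% of the pair in 3xTg and 81.1% in WT, and no cell had Eif1b alone.

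The alpha and beta subunits of eIF2 are encoded by Eif2s1 and Eif2s2. Eif2s1, which carries the residue that the eIF2 kinases phosphorylate, had 108 CPM in both genotypes, and between 102 and 115 CPM in each of the 4 long runs. In single cells its median was 89.4 normalized counts in 3xTg (0 to 423) but 59.8 in WT (0 to 686), and its mean log2 difference lay 0.71 above the median gene. Eif2s2 had a median of 201 normalized counts in 3xTg (1.53 to 793) and 111 in WT (0 to 824), with a log2 ratio of 0.18. Eif5, the GTPase activator of eIF2, had a median of 382 in 3xTg (0 to 2959) and 257 in WT (0 to 909). Its log2 ratio of 0.40 (interval 0.36 to 0.43) was 0.45 between the earlier and 0.13 between the later runs.

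Eif1a and Eif1ax encode near-identical forms of eIF1A, and the split of reads between them is uncertain. Eif1a had a median of 73.7 normalized counts in 3xTg (0 to 608) and 19.1 in WT (0 to 655), with a log2 ratio of 0.38, and was counted in 27 of 33 and 20 of 35 cells. Eif1ax had medians of 36.1 (0 to 284) and 20.6 (0 to 524) and a log2 ratio of -0.23. The values of both overlapped between genotypes. Per length Eif1a made up 81.3% of the pair in 3xTg and 73.96% in WT. The remaining genes of this group were Eif1ad (0.26, with 0.74 and -0.67 by run), Eif2a (0.31) and Eif2d (-0.09, in 18 and 13 cells), each with its log2 ratio of summed CPM. Of the WT counts of Eif2a, 36.2% came from WT cell 73, without which the log2 ratio was 0.91. Of its 3xTg counts, 23.3% came from 3xTg cell 92, without which the log2 ratio was -0.01. Eif2a overlaps Serp1 on the other strand, which held more counts (8378 against 4802), and whether counting used the strand is not stated.

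The 5 genes of eIF2B did not differ in one direction. Eif2b2, for the beta subunit, had a count in 27 of 33 cells of 3xTg (81.8%, 64.5% to 93.02%), compared with 20 of 35 of WT (57.1%, 39.4% to 73.7%). In 3xTg its normalized counts ran from 0 to 623 (median 102), and in WT they ran from 0 to 570 (median 14.6). The top values were alike and the WT cells without a count were more, at a log2 ratio of 0.51 (interval 0.45 to 0.57; earlier runs 0.54, later runs 0.19). Eif2b4, for the delta subunit, had a log2 ratio of 0.41.

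Eif2b1, for the alpha subunit, which joins the 2 arms of the complex, had the opposite sign. It showed a median of 26.1 normalized counts in 3xTg (0 to 255) and 8.28 in WT (0 to 645), and 1670 summed counts in 3xTg (interval 1591 to 1752) against 2711 in WT (interval 2610 to 2815). So the median cell was higher in 3xTg while the sum was lower, and its mean log2 difference lay 0.54 below the median gene. The log2 ratio was -0.81 (interval -0.90 to -0.72), with -1.07 between the earlier and -0.72 between the later runs. WT cell 6 held 17.96% of all WT counts, and without it the log2 ratio was -0.57. Eif2b3, for the gamma subunit, had medians of 40.5 in 3xTg (0 to 635) and 31.3 in WT (0 to 410) and a log2 ratio of -0.43. Eif2b5, for the catalytic epsilon subunit, was counted in 17 and 11 cells, with 1009 against 363 summed counts and a log2 ratio of 1.37, which was 4.20 between the earlier and -0.71 between the later runs.

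Of the 4 eIF2 kinases only Eif2ak2 was measured. Eif2ak2 encodes PKR, the kinase known for sensing double-stranded RNA, and it was counted in all 68 cells. It had 1.14 to 297 normalized counts in 3xTg (median 61.0) and 1.69 to 243 in WT (median 70.1). The genotypes covered the same range, with a log2 ratio of -0.41 (interval -0.48 to -0.34) that was 0.18 between the earlier and -0.98 between the later runs. Eif2ak3 encodes PERK, the kinase of the endoplasmic reticulum. Counts of it were found in 13 3xTg cells and 14 WT cells, namely 769 counts (interval 716 to 825) against 2158 counts (interval 2068 to 2251). Similar numbers of cells thus held it, and the highest cell had 84.9 normalized counts in 3xTg and 593 in WT. Its log2 ratio was -1.60, with -1.92 and -1.42 in the earlier and later runs. Eif2ak4 (GCN2, which senses uncharged tRNA) had 579 and 467 counts and log2 ratios of 3.66 and -1.26 by run, and Eif2ak1 (HRI) had 990 and 997 counts. It overlaps Aimp2 on the other strand, which held more counts (5681 against 1987).

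Both members past 2-fold higher belong to eIF3, the complex of many subunits that holds the small subunit, the messenger RNA and the other factors together. Some messenger RNAs of the translation machinery start with a run of pyrimidines, the terminal oligopyrimidine motif, which ties their use to mTOR signalling. The starts of 32 of the 41 measured members were in the RefSeq promoter table (GRCm38.p6). A C followed by at least 4 C or T, on the strand of the gene, with this first C within 2 bases of the annotated start and any base before it, was present for 4 of these 32 (12.5%) and for 10.6% of all genes of that table. The 4 were Eif1ad, Eif3f, Eif3l and Eif4g1. The starts of the 2 genes past 2-fold and of Eif3l, another subunit, are shown from 10 bases before the start on, with the match in capitals. In Eif3f and Eif3l the stretch of C and T reaches further upstream than the match. One of the pair past 2-fold has a match and the other has none.
Eif3f, chr7:108934405-108934434, plus strand: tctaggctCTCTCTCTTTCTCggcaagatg
Eif3d, chr15:77970805-77970834, minus strand: agggccatttacgacagcgctggtcgccgt
Eif3l, chr15:79075213-79075242, plus strand: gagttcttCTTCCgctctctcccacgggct

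Eif3d (gene ID 55944, mm10 chr15:77958998-77970824), a subunit that can itself bind the cap of selected messenger RNAs, showed the highest ratio of all measured members. In 3xTg its normalized counts ran from 0 to 370 (median 81.7), whereas in WT they ran from 0 to 239 (median 0). It had a count in 23 of 33 cells of 3xTg (69.7%, 51.3% to 84.4%), compared with 17 of 35 of WT (48.6%, 31.4% to 66.01%). Cells with many and cells without any counts were present in both genotypes. The sums of 3389 and 1269 counts, 92.3 and 37.3 CPM, were 2.48-fold apart, a log2 ratio of 1.31 (interval 1.21 to 1.40). The earlier runs gave 1.82 and the later runs 0.67. By run, Eif3d had 26.7 CPM in WT 1 to 22 and 55.9 CPM in WT 57 to 74, and 94.5 and 89.1 CPM in the 3xTg runs, so that both 3xTg runs lay above both WT runs.

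Eif3f (gene ID 66085, mm10 chr7:108934415-108941942) had a count in 28 of 33 cells of 3xTg (84.8%, 68.1% to 94.9%), compared with 15 of 35 of WT (42.9%, 26.3% to 60.6%). Its normalized counts reached 292 in 3xTg (lowest 0, median 22.2) and 140 in WT (lowest 0, median 0). The log2 ratio of 1.05 (interval 0.91 to 1.19), from 1354 against 605 counts, had opposite signs by run, with 1.85 between the earlier and -0.35 between the later runs. A single 3xTg cell held 20.4% of the 3xTg counts, and without it the log2 ratio was 0.76. Without cells under 5000 genes the log2 ratio was 0.64, so that Eif3f was no longer past 2-fold. Unlike Eif3d, then, the summed difference of Eif3f was that of the earlier runs, where 48.5 CPM in 3xTg stood against 13.4 CPM in WT. In the later runs a larger share of 3xTg cells still had a count, 11 of 12 against 8 of 15 WT cells. The mean log2 difference of Eif3f between the later runs lay 0.60 above the median gene.

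**Figure D2:**
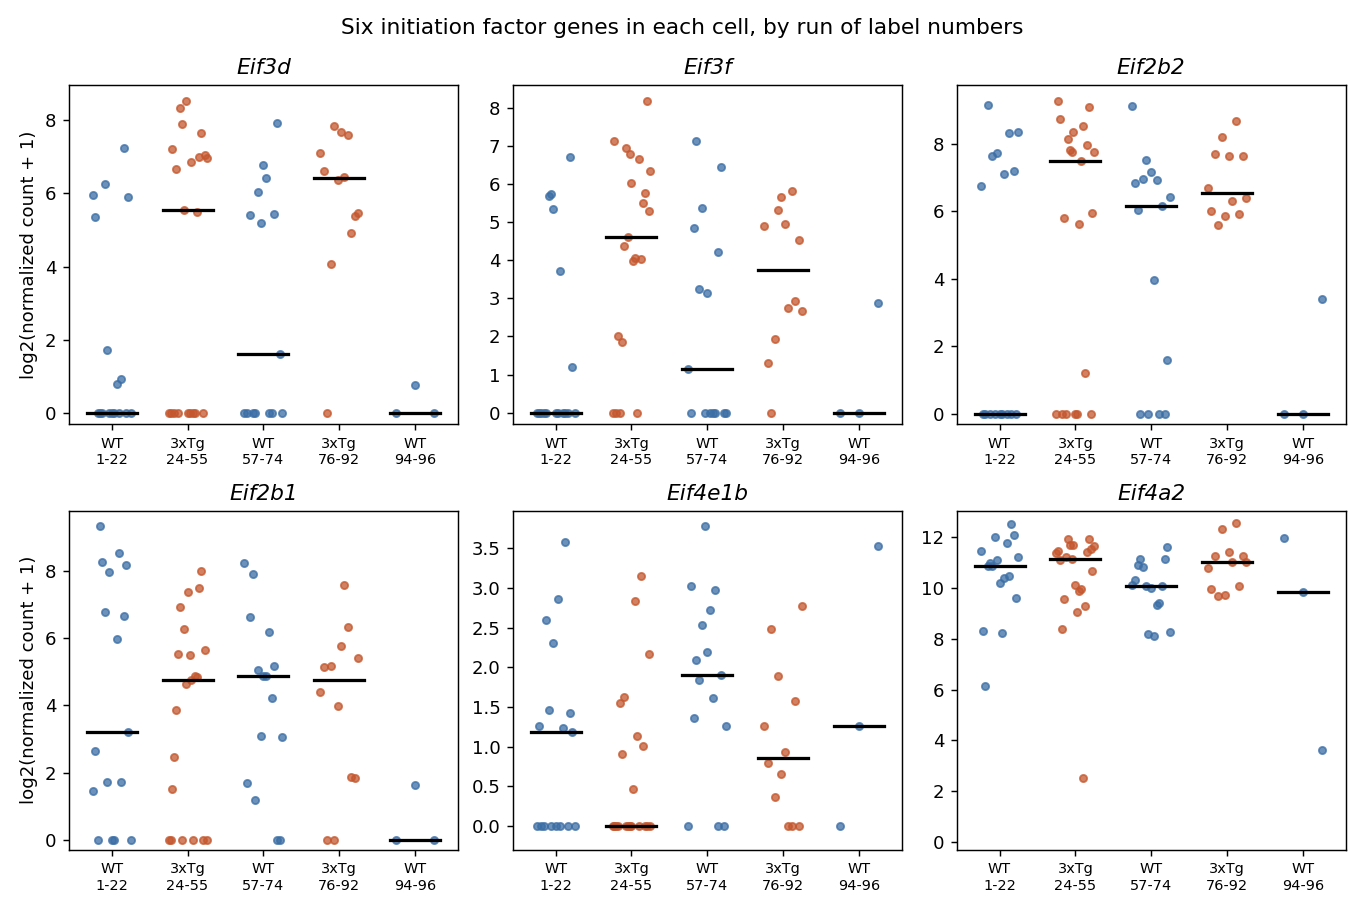
Normalized counts of 6 initiation factor genes in each of the 68 cells, as log2(normalized count + 1), by run of label numbers, with WT in blue, 3xTg in orange and the median of each run as a bar. Cells without a count lie at 0 in every panel but that of Eif4a2, and the Eif3d medians of both 3xTg runs lie above those of the WT runs.

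No other measured subunit of eIF3 lay past 2-fold in summed CPM. Averaged over cells on the log scale, Eif3a and Eif3i lay 1.07 and 1.21 above the median gene. The summed log2 ratio of Eif3g was -0.21, with -0.83 between the earlier and 0.64 between the later runs. WT cell 6, of the earlier WT run, held 22.1% of the WT counts of Eif3g, and without it the log2 ratio was 0.10. Eif3l had medians of 72.4 in 3xTg (0 to 377) and 23.8 in WT (0 to 355) normalized counts and a log2 ratio of 0.54, and the core subunit gene Eif3c had medians of 197 (0 to 622) and 105 (0 to 623) and a log2 ratio of 0.43. Both were above 0 between the earlier and the later runs. Eif3k, the most counted subunit over both genotypes, had medians of 143 in 3xTg (0 to 1404) and 122 in WT (0 to 1077) and a log2 ratio of 0.22. In WT alone Eif3h had more counts, 6270 against 5931. Of the 11 measured subunits 9 lay above 0, but only 5 did so between the earlier runs and 10 between the later. Of all measured genes 46.8% lay above 0, with 57.6% between the earlier and 43.04% between the later runs. Summed over the subunits the log2 ratio was 0.19 (interval 0.17 to 0.21), with -0.07 and 0.47 by run. Although the subunits act in one complex, their transcripts ranged in WT from 7.07 CPM per kilobase for Eif3f to 225 for Eif3k, 31.8-fold apart. The core subunit gene Eif3b was counted in no more than 14 3xTg cells and 11 WT cells, at 579 and 1052 counts and a log2 ratio of -0.97, with opposite signs by run (-1.89 and 0.44). Eif3m overlaps Ccdc73, which held 334 counts on the other strand.

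**Figure D3:**
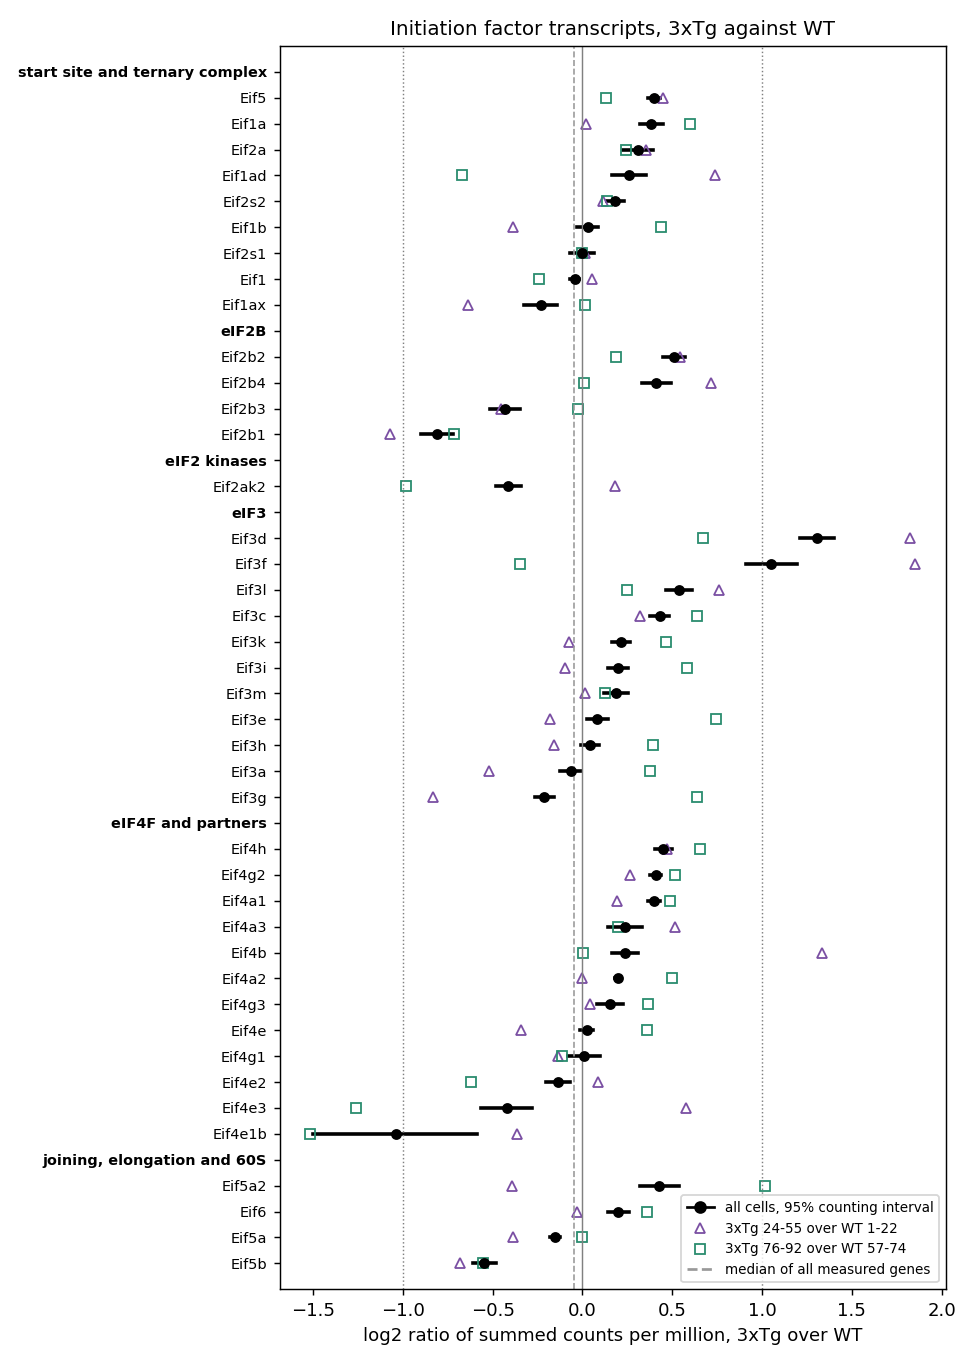
Log2 ratio of summed CPM, 3xTg over WT, for the 41 measured members by role, with black points and 95% counting intervals for all cells, triangles for the earlier runs and squares for the later runs, dotted lines at 2-fold and a dashed line at the median of all measured genes. Most black points lie between -0.5 and 0.5, and triangles and squares are often on opposite sides of 0.

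The genes of eIF4F and its partners held the most counts, 0.398% in 3xTg and 0.344% in WT. Eif4a2 (gene ID 13682, mm10 chr16:23107479-23114132) alone had 73960 counts in 3xTg and 59797 in WT, and the helicase it encodes is the form of eIF4A known to prevail in neurons. The lowest 3xTg cell had 4.76 normalized counts, the median one 2189 and the highest 5916, while the WT cells went from 11.3 over a median of 1325 to 5766. The ranges were nearly the same, and the log2 ratio of 0.20 (interval 0.18 to 0.21) was 0.00 (rounded) between the earlier and 0.50 between the later runs. The paralogue Eif4a1 had medians of 332 in 3xTg (0 to 1617) and 150 in WT (0 to 3004) and a log2 ratio of 0.40, with 0.19 and 0.49 by run. Per length Eif4a2 made up 75.96% of the pair in 3xTg and 78.4% in WT, and no cell had Eif4a1 alone. Without Eif4a2, the share of all members in 3xTg over WT was 0.11 on the log2 scale in place of 0.13.

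Eif4h, Eif4b and Eif4a3 help or resemble these helicases. Eif4h, which stimulates eIF4A, had medians of 225 in 3xTg (0 to 879) and 81.1 in WT (0 to 555) and a log2 ratio of 0.45, close to the values of both run comparisons, 0.47 and 0.65. For Eif4b, a target of S6 kinase that also stimulates eIF4A, the log2 ratio was 0.23, from 1.33 between the earlier and 0.01 between the later runs. Eif4a3, which sits in the exon junction complex, had a log2 ratio of 0.24.

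The cap-binding protein gene Eif4e differed less between the genotypes than between its runs, with medians of 304 in 3xTg (1.53 to 901) and 205 in WT (0 to 1807) normalized counts. Its log2 ratio was 0.02 (interval -0.01 to 0.06), with -0.34 and 0.36 by run. Eif4e2, a form that represses translation, was counted in all cells, with medians of 60.7 in 3xTg (10.1 to 397) and 56.1 in WT (16.3 to 651) and a log2 ratio of -0.13. Eif4e3, a further cap-binding form, had medians of 11.5 (0 to 85.4) and 3.67 (0 to 240). Its log2 ratio was -0.42 (interval -0.56 to -0.28), with 0.58 between the earlier and -1.26 between the later runs. WT cell 73, of the later WT run, held 25.9% of the WT counts of Eif4e3, and without it the log2 ratio was -0.03. Eif4e1b (gene ID 218268, mm10 chr13:54784003-54788458), a form best known from oocytes, was the member past 2-fold lower, and it was barely present. It had 0 to 7.85 normalized counts in 3xTg (median 0.379) and 0 to 12.8 in WT (median 1.56), with 63 counts (interval 48 to 81) against 120 (interval 99 to 143) and a log2 ratio of -1.04 (interval -1.50 to -0.59). It did not stay past 2-fold with TMM factors (-0.94), with thinned cells (-0.63), without the cells that held Pvalb, Tmem119 or P2ry12 (-0.62), without cells under 5000 genes (-0.92) or between the earlier runs (-0.36), nor after leaving out any one of 18 cells.

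Of the scaffold genes, Eif4g2 was the most counted. It encodes a relative of eIF4G that does not bind eIF4E, and it had medians of 585 in 3xTg (13.8 to 1678) and 217 in WT (4.55 to 2347) normalized counts. Its log2 ratio of 0.41 (interval 0.38 to 0.44) was 0.26 and 0.51 by run. Eif4g1 had medians of 37.3 in 3xTg (0 to 240) and 10.8 in WT (0 to 823), with a log2 ratio of 0.01 (interval -0.08 to 0.10). A single WT cell held 36.8% of its WT counts, and without the top cell of each genotype the log2 ratio was 0.51. Eif4g3 had medians of 63.96 (0.646 to 463) and 30.9 (0 to 477) and a log2 ratio of 0.15. All 3 scaffolds overlapped widely between genotypes.

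The regulators that act on eIF4E were scarce. Eif4enif1, which carries eIF4E into the nucleus and to sites of messenger RNA storage, had a count in 8 of 33 cells of 3xTg (24.2%, 11.1% to 42.3%), compared with 17 of 35 of WT (48.6%, 31.4% to 66.01%). Its 479 counts (interval 437 to 524) and 1677 counts (interval 1598 to 1759) gave a log2 ratio of -1.92, with -1.14 and -2.04 by run. Eif4enif1 had the lowest ratio of the 51 members with counts, in cells too few to be called measured. The 4E-BP genes were scarcer still. Eif4ebp1 was counted in 9 3xTg and 11 WT cells (386 and 806 counts, log2 ratio -1.17), and Eif4ebp2 in 4 and 4 cells (92 and 254 counts, log2 ratio -1.57, by run -4.02 and 2.34), with 56.5% and 57.9% of the counts in 1 cell of each genotype. The log2 ratio of Eif4ebp2 was -2.71 without 3xTg cell 92 and -0.37 without WT cell 16. Eif4ebp3 was counted in 5 3xTg cells and 1 WT cell (43 and 4 counts).

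For the last steps, subunit joining and the first peptide bonds, the summed levels of Eif5a and Eif5b were lower in 3xTg and that of Eif6 higher, while the median cell was higher in 3xTg for all 3 genes. Eif5a had 0 to 1749 normalized counts in 3xTg (median 571) and 6.23 to 3117 in WT (median 525), with a log2 ratio of -0.15 (interval -0.18 to -0.13). Eif5a2, its paralogue, had medians of 11.97 in 3xTg (0 to 445) and 0 in WT (0 to 312) and was counted in 24 of 33 and 13 of 35 cells. The log2 ratio of Eif5a2 was 0.43 (interval 0.32 to 0.54), with -0.39 between the earlier and 1.01 between the later runs. Per length Eif5a made up 97.9% of the pair in 3xTg and 98.6% in WT. Eif5b, the GTPase that joins the subunits, had a log2 ratio of -0.55 (interval -0.61 to -0.48), with -0.68 and -0.56 by run, and it overlaps Rev1, which held 1103 counts on the other strand. Its cells had a median of 76.7 in 3xTg (1.19 to 266; counted in 33 of 33) and 41.96 in WT (0 to 1185; counted in 29 of 35), and 1 WT cell held 18.7% of the WT counts. For Eif6, which keeps the large subunit from joining too early, the log2 ratio was 0.20, with -0.03 between the earlier and 0.36 between the later runs.

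Run by run, few members kept a large difference. Between the earlier runs 3 of 41 lay past 2-fold higher in 3xTg (Eif3d, Eif3f and Eif4b), against 14.2% of all genes, and 1 of 41 past 2-fold lower (Eif2b1), against 8.63%. Between the later runs 1 of 41 lay past 2-fold higher (Eif5a2), against 6.34%, and 2 of 41 past 2-fold lower (Eif4e1b and Eif4e3), against 16.7%. No member lay past 2-fold in both. The ratio was above 0 in both comparisons for 16 of 41, against 25.5% of all genes, and below 0 in both for 6 of 41 (Eif2b1, Eif2b3, Eif4e1b, Eif4g1, Eif5a and Eif5b), against 24.9%, and it changed sign for 19.

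Runs of 1 genotype hold fewer cells than the pooled genotypes, so they are set beside the run comparisons between genotypes. Of all genes, 14.2% lay past 2-fold higher and 8.63% lower between the earlier runs, and 6.34% and 16.7% between the later. The share between the 3xTg runs, in either direction, was below the 14.2% and the 16.7% alone, and that between the WT runs was above each of them. Of the 41 members, 8 lay past 2-fold in either direction between the 2 long WT runs (Eif2a, Eif3d, Eif3e, Eif3g, Eif3l, Eif4b, Eif4e1b and Eif4e3), against 27.8% of all genes. Between the 3xTg runs 3 did so (Eif2a, Eif3f and Eif5a2), against 12.5%. As between the genotypes, the members' shares past 2-fold, 19.5% and 7.32%, lay below those of all genes in both. These shares rest on few genes and were not tested.

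More members were found per cell in 3xTg, together with more genes of any kind. A 3xTg cell had counts for a median of 37 of the 41 measured members (14 to 41), and a WT cell for 31 (19 to 41), which is 90.2% and 75.6%. For all measured genes the medians were 85.4% and 80.1%. By run the medians were 27 members in WT 1 to 22, 36 in 3xTg 24 to 55, 35 in WT 57 to 74, 40 in 3xTg 76 to 92 and 28 in WT 94 to 96, in the order of the genes detected within the earlier and the later pair of runs. At an equal depth of 700756 counts per cell (2 shallower 3xTg and 5 shallower WT cells dropped), the medians were 38 and 31, and those for all measured genes 83.8% and 76.97%. Eif1, Eif2ak2, Eif4a2, Eif4e2 and Eif4g2 were counted in every cell, and 9 cells had all 41. What part the number of genes detected has in the members' differences was not tested beyond these values.

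**Figure D4:**
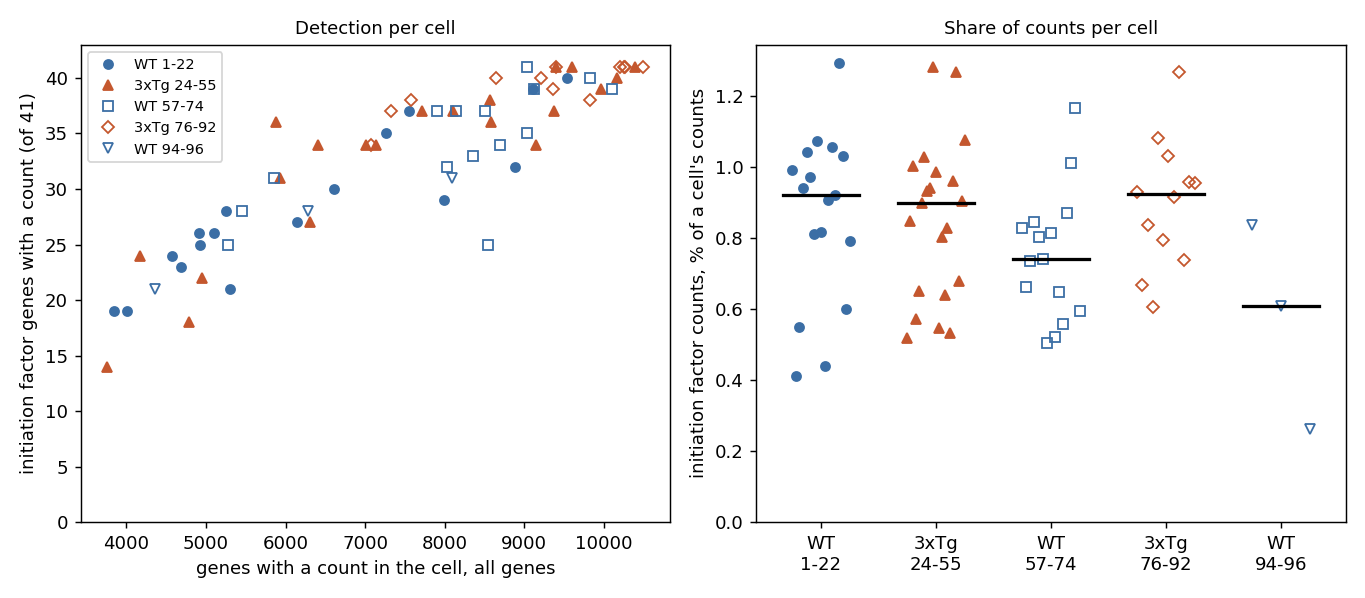
Left, number of the 41 measured initiation factor genes with a count in each cell against the number of all genes with a count, by run of label numbers, with WT in blue and 3xTg in orange. Right, initiation factor counts as percent of all counts of each cell, with the median of each run as a bar. Cells with few genes detected also had few members detected, and the shares of the runs overlap.

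Around the members, 37 genes of connected steps were looked at, of which 27 were measured, and with all cells none of these lay past 2-fold in either direction, where 10.9% of all measured genes did. Between the earlier runs Mtor and Pdcd4 lay past 2-fold higher (all genes 14.2%) and none past 2-fold lower (8.63%). Between the later runs Dhx29 and Eef1a2 lay past 2-fold higher (6.34%) and Cyfip1 and Mtor past 2-fold lower (16.7%). Their median log2 ratio was 0.00 (rounded), and 13 of 27 lay above 0, against 46.8% of all genes. Of the 7 measured genes of the integrated stress response 5 lay above 0. Atf4, the transcription factor whose messenger RNA is translated when eIF2 is phosphorylated, stood at 199 CPM (3xTg) against 166 CPM (WT), a log2 ratio of 0.26. Its targets Asns and Ddit3 had log2 ratios of 0.58 and 0.34, and Ppp1r15a, which brings the phosphatase to eIF2, had -0.44, beside -0.40 for its relative Ppp1r15b. Among the 4 counted in fewer cells, Atf5 (0.68) and Sesn2 (1.39) lay above 0 and Chac1 (-0.42) and Trib3 (-0.39) below. Trib3 was counted in 1 3xTg cell and 2 WT cells (interval -0.92 to 0.14). Atf5 had 2.82 between the earlier and -0.28 between the later runs, and Chac1 had -0.78 and 0.20. By run Ppp1r15a had -0.97 between the earlier and 0.11 between the later runs. One WT cell held 26.95% of its WT counts, and without it the log2 ratio was -0.04. Of the poly(A) and cap partners, Paip2b (0.74), an inhibitor of poly(A) binding protein, and Cyfip1 (-0.83), a partner of FMRP that binds eIF4E, stood farthest apart after the helicase gene Dhx29 (0.97). Single cells weighed on both extremes, since Dhx29 had a log2 ratio of 1.79 without WT cell 9, and Cyfip1 went from -1.63 without 3xTg cell 43 to -0.29 without WT cell 7. Eef1a1, the main elongation factor gene, stood at 1814 CPM (3xTg) against 1828 CPM (WT), a log2 ratio of -0.01.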

How the data were processed

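Patch-seq libraries of 68 neurons were analysed, each deposited sample being 1 cell. After trimming, the authors mapped reads against RefSeq transcripts of mm10 (Strand NGS 4.0, minimum identity 90%), removed duplicates and deposited estimated counts per gene, of which 55.3% of those above 0 were not whole (tolerance 0.001). Beside them the authors deposited log2 values normalized with the DESeq2 algorithm and shifted per gene by an amount not given in the sources used here. These log2 values served as an alternative only.

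Counts were rounded for sums, CPM, detection and thinning. Normalized counts are the deposited counts divided by size factors (median of ratios over 787 genes). Lengths are those of the longest principal transcript of GENCODE M21 (GRCm38), while counting used RefSeq. Sums have exact Poisson intervals, ratios exact conditional intervals and shares of cells exact Clopper-Pearson intervals, all at 95%. Reads carry no stated molecular identifiers, so these cover counting error only. Members and lists were chosen with earlier results of these data known. All members are accounted for by role. Among measured members, medians per cell and log2 ratios were given for those past 2-fold, the 6 highest and 4 lowest ratios with the same sign on both scales, the most counted of each role, paired copies, and those that changed sign between runs and lay past 2-fold in either. Intervals and run values were given for a part of them. Genes chosen after their values were seen are those with counts in under 34 cells and the connected genes given with values.

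The alternatives were TMM factors, thinned cells, cells without Pvalb, Tmem119 or P2ry12, the run comparisons, the study's filter, no filter, other summaries and pseudocounts of 0.1 and 10, and leaving out each cell. Cells with at least 5000 genes, members without Eif4a2, and single genes without each cell in turn, were added once the values were known. Simulated data were used to check the summed log2 ratio, and the mean log2 difference was computed on them too. The other calculations were not checked in this way. Doublets were not called. TMM factors came from edgeR 4.0.16 (R 4.3.3), and everything else from Python 3.11.15 (pandas 2.3.3, numpy 2.4.6, scipy 1.17.1; plots with matplotlib 3.10.9).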

Additional observations from a re-analysis of the deposited data

How the results depend on the processing

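The members' log2 ratio of summed shares (0.13) was 0.23 with TMM factors, 0.080 with thinned cells, 0.15 without cells that held Pvalb, Tmem119 or P2ry12, -0.0061 and 0.24 in the earlier and later runs, 0.16 without cells under 5000 genes, 0.11 without Eif4a2, and 0.10 to 0.15 with each cell left out. The median member log2 ratio (0.18) was, in the order of those settings up to the cells under 5000 genes, 0.28, 0.089, 0.20, 0.019, 0.20 and 0.19. It was 0.15 with no filter, 0.23 without each gene's top cells, 0.20 from the mean of CPM and 0.14 to 0.22 with each cell left out. In the earlier runs the median of all measured genes, 0.14, lay above that of the members. The median member mean difference relative to the median gene (0.52) was, in the same order, 0.51, 0.30, 0.57, 0.49, 0.71 and 0.67. It was 0.55 with the study's filter (which 13 of its 29 members passed through 3xTg alone and 0 through WT alone, so that it favours higher 3xTg values), 0.71 with no filter, 0.63 and 0.44 with pseudocounts of 0.1 and 10, 0.50 with CPM, 0.53 with the authors' values and 0.41 to 0.62 with each cell left out. The number past 2-fold higher (2) was 1 between the later runs, with the study's filter and without cells under 5000 genes (6.34%, 2.61% and 3.54% of all genes), and 4 of 51 with no filter (18.5%). The number past 2-fold lower (1) was 0 with TMM factors, thinned cells, the study's filter, and without cells that held those markers or cells under 5000 genes (5.15%, 6.83%, 3.86%, 6.85% and 5.88% of all genes), 2 between the later runs (16.7%), and 5 of 51 with no filter (21.4%). With each cell left out these numbers ranged from 1 to 2 and from 0 to 1. Leaving out any of 4 3xTg cells (36, 38, 43 or 50) took Eif3f below 2-fold. Leaving out any of 18 cells (3xTg 24, 29, 36, 37, 38, 49, 55, 85, 89 or 91, WT 14, 17, 58, 64, 65, 67, 69 or 96) did so for Eif4e1b. With each cell left out, Eif3d lay between 1.20 and 1.59. The ratio of Eif3f reversed to -0.35 in the later runs. With no filter 51 members enter in place of 41, and with the study's filter 29. The other causes were not tested. No paired analysis was possible because the genotypes share no replicate numbers. Depth limits members counted in few cells, and a cell without a count may hold transcripts below detection.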
